A study of Homo sapiens with 8 samples.

Results

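The genes described here are 44 translation initiation and elongation factors, chosen by symbol: a gene is a member when its symbol in the deposited tables equals a name on the list. All 44 were found among 18937 genes in the deposited comparison tables, and all 44 passed the low-count filter that left 16449 genes for testing. The RNA came from HT29 cells, a human line established from a colorectal adenocarcinoma. There were 8 poly(A) RNA-seq libraries in 4 groups of 2. The control cells received 0.1% DMSO for 48 h. Treated cells received ICG-001 at 10 µM, CWP232228 at 1.5 µM or YB-0158 at 0.3 µM, which the series presents as reverse-turn peptidomimetics. Exposure was 48 h except for replicate 2 of ICG-001 and replicate 2 of CWP232228, both labelled 49 h. The labels do not say whether the 2 libraries of a group come from separate cultures, so each p-value reflects the scatter of these libraries alone, and that scatter may be technical. All results are for 1 cell line, and each compound was used at 1 dose.

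Translation of most messenger RNAs begins when the cap is bound by eIF4E and the scaffold eIF4G with the helicase eIF4A. The small ribosomal subunit arrives carrying eIF1, eIF1A, eIF3 and the initiator tRNA held by eIF2, and scans to the start codon. eIF5 then triggers GTP hydrolysis on eIF2, eIF5B joins the large subunit, and eIF2B recharges eIF2 with GTP. During elongation eEF1A delivers aminoacyl-tRNAs, the eEF1B complex recharges eEF1A, and eEF2 moves the ribosome along the messenger. Many messenger RNAs of the translation machinery start with a C followed by a run of pyrimidines, the 5′ terminal oligopyrimidine or TOP motif, through which growth signalling is known to set their translation.

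The first bases of several of these genes are shown because a TOP-like start is a known feature of this gene group and members with one were found among those called higher, called lower and not called. RefSeq promoter windows (GRCh38.p14, 250 bases before to 50 bases after each annotated start) were found for 36 of the 44 members; EIF2S2, EIF3A, EIF3E, EIF3G, EIF3H, EIF3L, EEF1D and PABPC1 had no entry in the table. The motif sought was a C at the first transcribed base followed by at least 4 bases that are each C or T. It was read on the gene's own strand only and stood in a window of 11 of the 36 members (30.6%). Counted by window, it stood in 11 of 50 member windows (22%), beside 4.07% of all 35116 windows in the table. Each line below runs from 10 bases before the start to 20 bases from it, with the pyrimidine run in capitals. EEF2 (chr19:3985444-3985473, minus strand), EIF3K (chr19:38619178-38619207, plus strand) and EIF3F (chr11:7987327-7987356, plus strand) fell with all 3 compounds. The call of EIF3F with YB-0158 was lost in several alternative fits given below. EEF1A1 (chr6:73521013-73521042, minus strand) and EIF4B (chr12:53006446-53006475, plus strand) were called with none, and EIF4A2 (chr3:186783567-186783596, plus strand) rose with 2 of the 3. EIF4A1 (chr17:7572815-7572844, plus strand) and EEF1G (chr11:62573872-62573901, minus strand) fell with all 3 and lack the run at the annotated start.
EEF2: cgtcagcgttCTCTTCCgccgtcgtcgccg
EIF3K: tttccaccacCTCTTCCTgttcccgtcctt
EIF3F: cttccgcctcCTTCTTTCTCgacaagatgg
EEF1A1: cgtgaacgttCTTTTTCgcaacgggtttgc
EIF4B: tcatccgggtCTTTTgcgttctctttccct
EIF4A2: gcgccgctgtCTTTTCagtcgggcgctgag
EIF4A1: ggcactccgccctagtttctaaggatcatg
EEF1G: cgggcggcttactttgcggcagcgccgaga

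Among the 11 members with a TOP-like start, 1 was called higher and 3 lower with ICG-001, 2 higher and 3 lower with CWP232228, and 1 higher and 3 lower with YB-0158. Over all genes tested, 24.8% were called higher and 24% lower with ICG-001, 21.6% and 21.2% with CWP232228, and 21.7% and 22.1% with YB-0158. The 3 lower calls of 11 lie near that background, and nothing is read from these counts. The median log2 fold changes of the 11 members against DMSO were -0.19, -0.17 and -0.06. The 25 members with another start gave 7 higher and 7 lower, 6 higher and 10 lower, and 5 higher and 6 lower, with medians of 0.01, -0.07 and 0.02. A match is a description of letters at an annotated start, and transcript starts were not measured in these libraries.

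The libraries held 29071547 to 58489118 estimated reads each. Of those reads, 1.54% to 1.85% lay on transcripts that could not be matched to a gene. A count of 3 reads, the floor used for absence, corresponds to 0.0513 to 0.103 reads per 1e+06 estimated reads, and every member lay far above it. CPM below are reads per 1e+06 assigned reads of genes that passed the filter, after TMM scaling between libraries. Cell type was checked on markers, which do not identify the line itself. Of 9 colon epithelium markers, 8 were at 1 TPM (a length-scaled share of the library) or more in every library. Their summed level ran from 9127 to 11151 TPM. KRT8 and KRT18 had the highest levels of these markers, with means of 8502 and 4961 CPM in DMSO. CDX2 and GPA33 were far lower there, with means of 15.8 and 5.93 CPM. At 1 TPM or more in every library were also 0 of 6 fibroblast, 2 of 5 leukocyte and 0 of 4 endothelium markers. The summed level was 2.23 to 4.22 TPM for 6 fibroblast markers, 5.20 to 10.4 TPM for 5 leukocyte markers and 0.127 to 0.712 TPM for 4 endothelium markers. The 2 DMSO libraries differed most, with an SD of the log2 difference between replicates of 0.298 over 8568 well-expressed genes, against 0.112 to 0.128 within the treated groups. The tests below share an estimate of the spread of each gene over all groups. Their p-values against DMSO may therefore be too small, and those between compounds too large.

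In DMSO the elongation factors were the most abundant members per transcript length. EEF1A1, which carries aminoacyl-tRNA to the ribosome, stood at 10751 and 9487 TPM. EEF1G, a structural subunit of the eEF1B exchange complex, followed at 3644 and 4057 TPM, then EEF2 at 2886 and 2453 TPM. The gap between EEF1A1 and EEF1G exceeded the replicate spread, with a ratio of 2.65 ± 0.43 (SD, n = 2). PABPC1, the cytoplasmic poly(A)-binding protein, was the fourth member, at 1717 and 2040 TPM. Below it EIF4A1 (1372 ± 14.9 TPM, n = 2) was the most abundant initiation factor that acts on the cap, and EEF1D (1144 ± 26.7) and EEF1B2 (1118 ± 98.2), neighbours in the order, did not differ beyond their spread. EIF4G2, with 1272 and 715 TPM, had uneven replicates, and a transcript annotated for nonsense-mediated decay took 67.5% and 58.6% of its TPM. At the low end stood EIF2B3, a subunit of eIF2B, at 13.9 and 12.6 TPM and EEF2K, the kinase that inhibits eEF2, at 8.27 and 3.54 TPM.

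Together the members took 3.80% ± 0.145 of the assigned reads in DMSO (SD, n = 2). The share was 3.34% ± 0.110 with ICG-001, 3.42% ± 0.0163 with CWP232228 and 3.53% ± 0.0198 with YB-0158. The lowest DMSO library, at 3.70%, lay above the highest treated library, at 3.54%. That separation held for reads only: the members' summed TPM was 31930 and 30500 in DMSO, 28260 and 29330 with ICG-001, 30210 and 29240 with CWP232228, and 31510 and 31050 with YB-0158, so on TPM the YB-0158 libraries lay within the DMSO range. Both sums are weighted towards the most abundant members. Mean CPM of EEF1A1, EEF1G and EEF2 was 14690, 3910 and 3720 in DMSO and 12897, 2288 and 1875 with ICG-001. It was 13064, 2640 and 2141 with CWP232228, and 13790, 2637.5 and 2245 with YB-0158. The share therefore does not show that members in general fell, and calls in each direction are counted below. CPM and TPM are relative to the library, so less of a messenger per cell and more of other RNA cannot be told apart. Nor can a change in a fraction of the cells be told from a change in all of them.

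Each compound was then compared with DMSO by edgeR's quasi-likelihood test, with Benjamini-Hochberg adjustment over all 16449 genes and a call at an adjusted p under 0.05. With ICG-001, 10 members were higher and 13 lower, where 24.8% of all genes were called higher and 24% lower. With CWP232228, 10 were higher and 16 lower, against 21.6% and 21.2% of all genes. With YB-0158, 8 were higher and 12 lower, against 21.7% and 22.1%. As shares of 44 members the higher calls lay near or under the background. The lower calls lay a little above it with ICG-001 and YB-0158 and further above it with CWP232228, whose count depends on both of its libraries. These differences were not tested, and nothing is read from the counts. The median log2 fold change of the members was -0.06, -0.08 and -0.01, beside 0.03, 0.04 and 0.02 for all genes tested. The 3 comparisons share the DMSO libraries, so the values are set side by side and no agreement between them is counted as support.

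Within that frame, 5 members were called higher with each of the 3 compounds: EIF2S2, EIF3A, EIF4G2, EIF4G3 and EIF5. Another 12 were called lower with each: EIF2B2, EIF3B, EIF3F, EIF3G, EIF3K, EIF3L, EIF4A1, EIF4E2, EIF5A, EEF1D, EEF1G and EEF2. Called with none were 16: EIF1AX, EIF2A, EIF2B3, EIF2B5, EIF3D, EIF3E, EIF3H, EIF3M, EIF4B, EIF4E, EIF4G1, EIF4H, PABPC1, EEF1A1, EEF1B2 and EEF2K. No member was called higher with 1 compound and lower with another. Some of these calls, such as that of EIF3F with YB-0158, were lost in many alternative fits, as given below. The CWP232228 counts rest on its 2 libraries: they were 3 higher and 8 lower without its replicate 1, and 4 higher and 7 lower without its replicate 2. Leaving out both 49 h libraries leaves ICG-001 and CWP232228 with 1 library each, and all calls of members with CWP232228 were then lost. How many of all genes were called in the fits with libraries left out is not given here. Their member counts therefore say nothing about the members in particular.

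**Figure D1:**
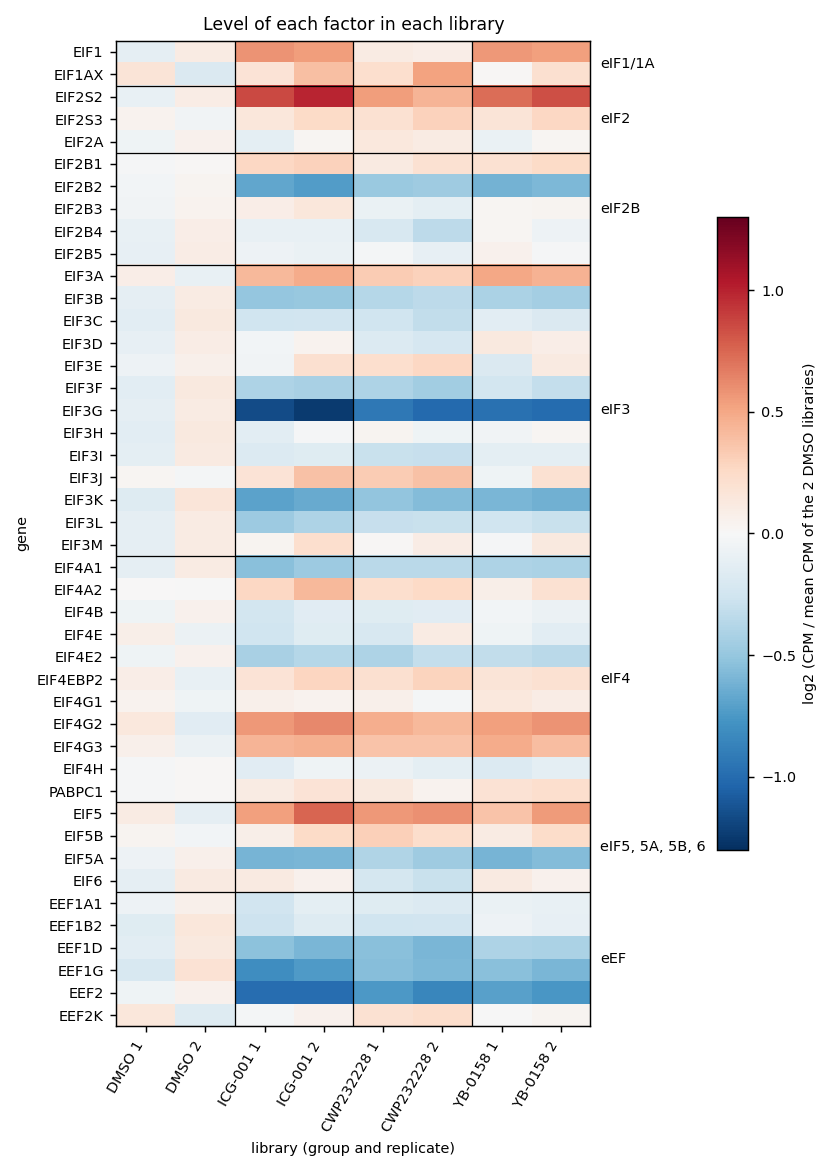
Level of each of the 44 members (rows, grouped by role) in each of the 8 libraries (columns), as log2 of CPM over the mean CPM of the 2 DMSO libraries. EIF3G and EEF2 show the deepest falls in the 6 treated libraries, EIF2S2 shows the largest rise with ICG-001 and YB-0158, and EEF1A1, PABPC1 and EIF4G1 lie near the DMSO level.

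**Figure D2:**
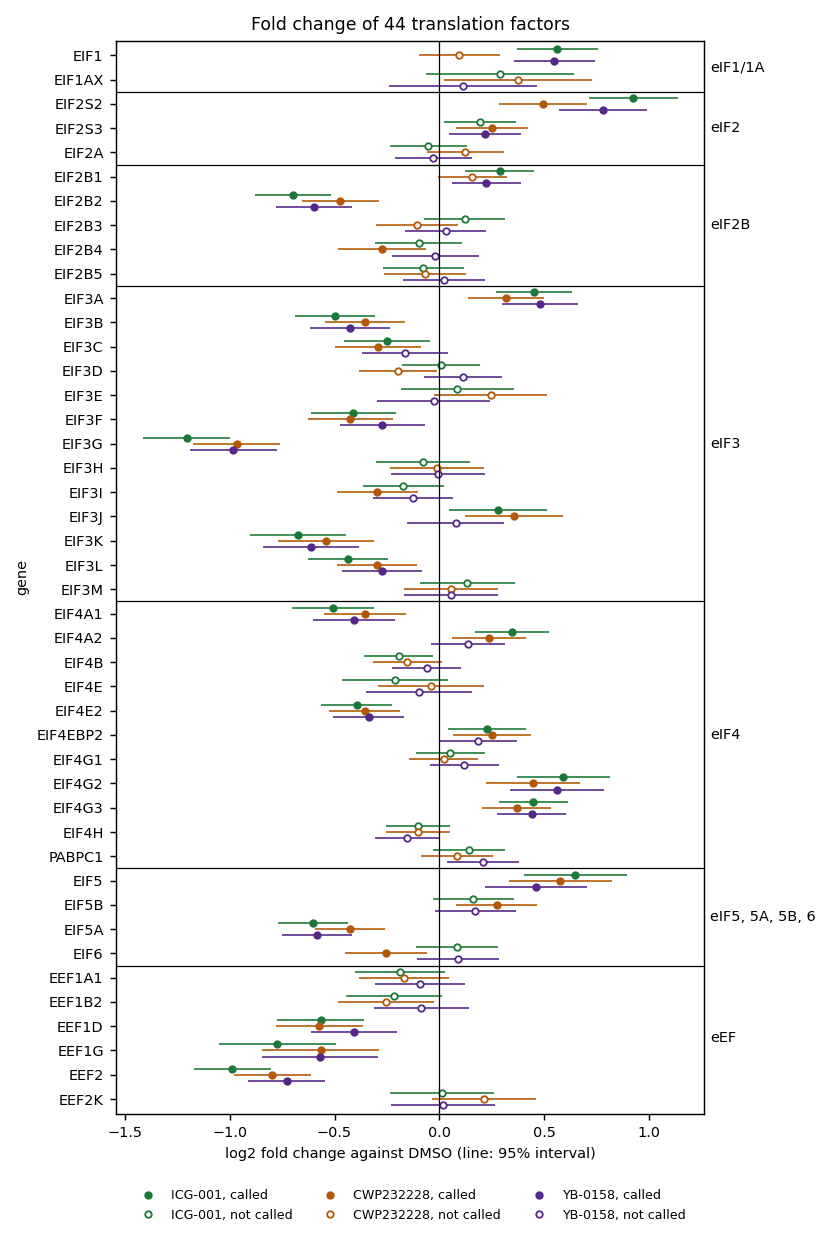
Log2 fold change of each member against DMSO with its 95% interval, for ICG-001, CWP232228 and YB-0158; filled points passed the adjusted p of 0.05 and open points did not. The fold changes run from -1.21 for EIF3G to 0.93 for EIF2S2, both with ICG-001.

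The fold changes of the members ran along the GC content of the genes. Across the 44 members Spearman's rho between GC content and log2 fold change was -0.69 with ICG-001, -0.81 with CWP232228 and -0.61 with YB-0158. The points share libraries, depth and base composition, and over all 16449 genes the same rho was -0.42, -0.57 and -0.38. Among the 22 members below the median GC content of 49.0%, 9 were higher and 1 lower with ICG-001, whereas 1 was higher and 12 lower among the 22 at or above it. Replicates of a group also differed along GC content, with rho from -0.59 in DMSO to 0.78 in ICG-001. Whether the trend is technical was not tested. An alternative fit with an offset for GC content and length removed the trend over all genes (rho -0.02 in each comparison) and left rho over members at -0.22, -0.09 and -0.11. That fit called 6 members higher and 19 lower with ICG-001, 4 and 15 with CWP232228, and 7 and 14 with YB-0158. The share of all genes that this fit called is not given here. Its counts are therefore not comparable with the background shares given above, which belong to the fit without an offset. Values from it are given below beside the members whose call, direction or size it changed.

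**Figure D3:**
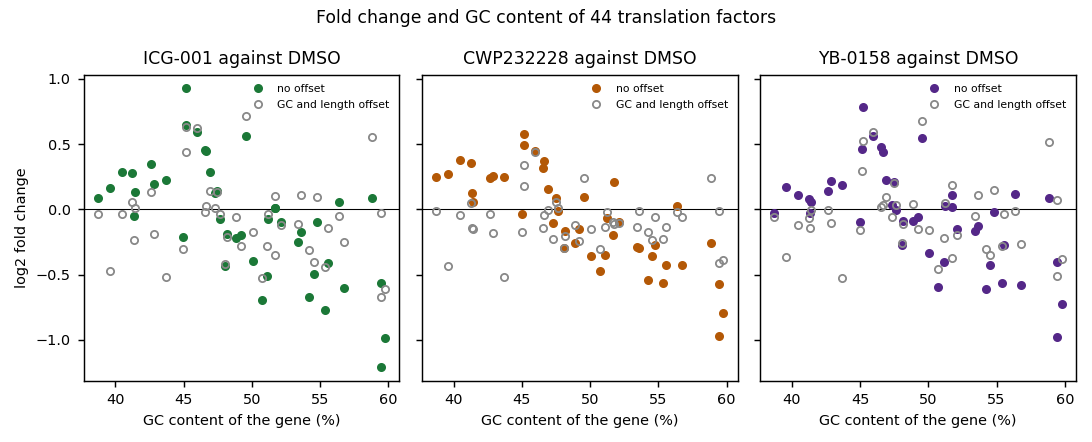
Log2 fold change against DMSO (vertical axis) and GC content of the gene in percent (horizontal axis) for the 44 members in the 3 comparisons; filled points are without and open points with the GC and length offset. The filled points slope downward in each panel, and the open points slope less (rho -0.22, -0.09 and -0.11), with some far from 0 at both ends of the GC range.

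Start codon scanning came first in the order of roles. EIF1, which guards the accuracy of start codon choice and is given in full after its values were seen, was at 372 and 437 CPM in DMSO, 606 and 588 with ICG-001, 434 and 429 with CWP232228, and 598 and 584 with YB-0158. The ICG-001 and YB-0158 libraries lay above all others, and the CWP232228 libraries fell inside the DMSO range. EIF1 rose by 0.56 on the log2 scale with ICG-001 (SE 0.08, edgeR adjusted p = 0.0010) and by 0.55 with YB-0158 (adjusted p = 0.0013), and its value with CWP232228 was 0.09 (adjusted p = 0.39). With the GC and length offset that last value was 0.24 (adjusted p = 0.011). EIF1AX, the partner of EIF1 on the small subunit, was at 159.7 and 125 CPM in DMSO, 161 and 187 with ICG-001, 165 and 204 with CWP232228, and 144 and 164 with YB-0158. Its log2 values of 0.29, 0.38 and 0.11 were not called by edgeR. With the effective length offset edgeR gave 0.64, 0.47 and 0.50 and called EIF1AX with ICG-001 (adjusted p = 0.022) and YB-0158 (adjusted p = 0.049), and with no low-count filter it was called with ICG-001 and CWP232228. In the authors' deposited table EIF1AX had log2 fold changes of 0.57, 0.39 and 0.45 with adjusted p = 0.0017, 0.033 and 0.015. With ICG-001 the authors' adjusted p was not under 0.05 for some members called here. Among them were EIF3L (0.22), EIF4EBP2 (0.18), EIF4A2 (0.076), EIF3J (0.068) and EIF3C (0.066). It was under 0.05 for some not called here, among them EIF4E (0.013) and EIF4B (0.040).

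Delivery of the initiator tRNA depends on eIF2, whose beta subunit EIF2S2 gave the largest rise among the members with ICG-001 and with YB-0158. EIF2S2 was at 271 and 311 CPM in DMSO, 526 and 579 with ICG-001, 423 and 396 with CWP232228, and 480 and 521 with YB-0158, so that every treated library lay above both controls. The fold change was 1.90 with ICG-001 (log2 0.93, SE 0.09, adjusted p = 0.00015), 1.41 with CWP232228 (log2 0.49, adjusted p = 0.0045) and 1.72 with YB-0158 (log2 0.78, adjusted p = 0.00036). With the GC and length offset the log2 values were 0.63, 0.18 and 0.52, and the call with CWP232228 was lost (adjusted p = 0.30). EIF2S3, the GTP-binding gamma subunit, was called with CWP232228 (0.25) and YB-0158 (0.22). The GC and length offset turned these to -0.18 and -0.11, neither called. It also turned the uncalled 0.19 of EIF2S3 with ICG-001 to a called -0.19. An offset for effective length ended both calls. That with YB-0158 was also lost with the replicate block and without any 1 library other than DMSO replicate 1. That with CWP232228 was lost without DMSO replicate 2, either CWP232228 library or YB-0158 replicate 1. EIF2A, a separate factor that can bring tRNA to the ribosome without eIF2, was at 166 and 179 CPM in DMSO and 157.8 to 190.5 CPM in the treated libraries and was not called; the offset gave a call of -0.24 with ICG-001.

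EIF2S1, the alpha subunit that stress kinases phosphorylate, is not on the member list but completes the complex. It was at 59.4 and 59.8 CPM in DMSO, 83.4 and 92.8 with ICG-001, 72.8 and 77.5 with CWP232228, and 81.5 and 84.4 with YB-0158. All treated libraries lay above the controls, and the log2 fold changes were 0.56, 0.33 and 0.48, all called. With the offset they were 0.33, 0.00 and 0.33, and CWP232228 was no longer called (adjusted p = 0.99); that call was also lost without CWP232228 replicate 2.

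Of the 5 subunits of eIF2B, the exchange factor, EIF2B2 fell with every compound. EIF2B2, part of its regulatory core, was at 38.7 and 40.8 CPM in DMSO, 24.9 and 24.0 with ICG-001, 28.3 and 28.9 with CWP232228, and 25.9 and 26.6 with YB-0158. No treated library overlapped the controls. The log2 fold changes were -0.70 (SE 0.08, adjusted p = 0.00028), -0.47 (adjusted p = 0.0032) and -0.60 (adjusted p = 0.00066), and with the offset -0.52, -0.31 and -0.46, all still called. EIF2B1, another core subunit, rose with ICG-001 (0.29) and YB-0158 (0.22), and with the GC and length offset neither was called. The effective length offset gave EIF2B1 values of 0.47, 0.40 and 0.44, all called. EIF2B4 fell with CWP232228 alone (-0.27), a call the offset also ended. Of the catalytic side, EIF2B5 was at 73.9 and 84.8 CPM in DMSO and 73.6 to 82.8 CPM with treatment, and neither it nor EIF2B3 was called; under the offset EIF2B3 was called lower with CWP232228 (-0.23).

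**Figure D4:**
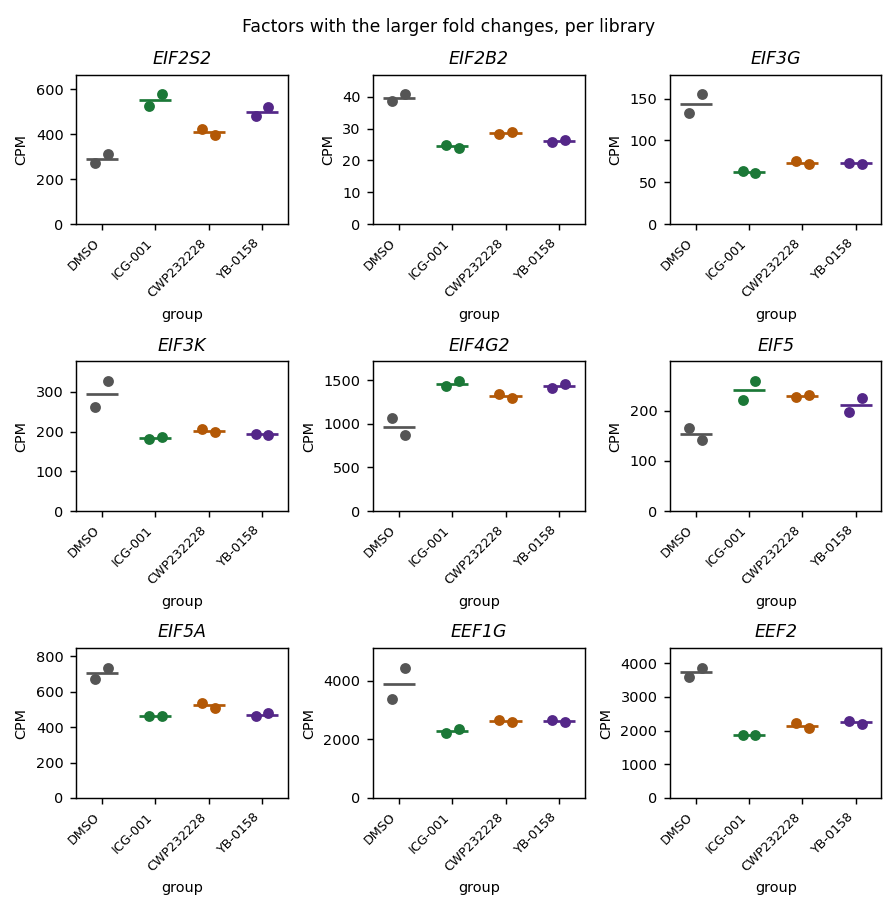
CPM (vertical axis, from 0) in each library for the 9 members called with an absolute log2 fold change of at least 0.58 in a comparison with DMSO; points are libraries and lines are the means of the 2 libraries of a group. In each panel the 6 treated libraries lie on 1 side of the 2 DMSO libraries.

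The eIF3 scaffold, which bridges the small subunit and the cap complex, had 13 members measured. With ICG-001, 2 rose, 6 fell and 5 were not called; with CWP232228 the counts were 2, 7 and 4, and with YB-0158 1, 5 and 7. The median log2 fold changes were -0.17, -0.29 and -0.13. These counts were not tested against the shares of all genes given above. EIF3G, an RNA-binding subunit, had the largest fall of all members: 132 and 155 CPM in DMSO, 64.1 and 60.7 with ICG-001, 75.8 and 71.4 with CWP232228, and 73.7 and 72.0 with YB-0158. Its treated libraries lay far below both controls. The log2 fold changes of EIF3G were -1.21 (SE 0.09, adjusted p = 4.1e-05), -0.97 (adjusted p = 0.00051) and -0.98 (adjusted p = 0.00012); with the offset they were -0.67, -0.41 and -0.51, all called.

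EIF3K, a peripheral subunit that pairs with EIF3L, was at 261 and 327 CPM in DMSO, 182 and 187 with ICG-001, 206 and 200 with CWP232228, and 195 and 191 with YB-0158. The groups did not overlap. EIF3K fell by 0.67, 0.54 and 0.61 on the log2 scale (adjusted p = 0.00097, 0.0045 and 0.0018, edgeR), and with the offset by 0.31, 0.18 and 0.31. EIF3L fell by 0.43, 0.30 and 0.27. An offset for effective transcript length ended those calls and gave 0.04 with CWP232228. The call of EIF3L with CWP232228 was also lost without either CWP232228 library. That with YB-0158 was lost without DMSO replicate 2, either CWP232228 library or either YB-0158 library.

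The remaining eIF3 subunits moved less. EIF3B, a core scaffold subunit, fell by 0.50, 0.36 and 0.42 (0.33, 0.16 and 0.26 with the effective length offset, without a call for CWP232228, which was also lost without either CWP232228 library), and EIF3F, which carries an MPN domain, by 0.41, 0.42 and 0.27. With the GC and length offset EIF3F stood at -0.14, -0.14 and -0.03 and kept its calls with the first 2 compounds. The replicate block and the effective length offset also ended its call with YB-0158. So did leaving out any 1 library other than DMSO replicate 1. Its call with CWP232228 was lost with the effective length offset and without CWP232228 replicate 2. EIF3A, the largest subunit, went the other way, rising by 0.45, 0.32 and 0.48, yet with the GC and length offset it stood at -0.02, -0.14 and 0.02 and was called in none. EIF3J, a loosely bound subunit, rose with ICG-001 (0.28) and CWP232228 (0.36), and the offset ended both calls. EIF3C fell with ICG-001 (-0.25) and CWP232228 (-0.29) without a call under that offset, and adding the reads of its near-identical copy EIF3CL left the values at -0.25 and -0.28. EIF3I was called with CWP232228 alone (-0.30), a call the offset ended (-0.01). EIF3D, which can bind caps itself, was at 227 and 262 CPM in DMSO and 210.3 to 268 CPM with treatment, and like EIF3E, EIF3H and EIF3M it was not called. The offset gave EIF3D a call of 0.19 with YB-0158.

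Among the 11 factors of the cap and helicase group, 4 were higher and 2 lower with ICG-001, 4 and 2 with CWP232228, and 2 and 2 with YB-0158. The median log2 fold changes were 0.05, 0.02 and 0.12. Neither were these counts tested against the shares of all genes. EIF4A1 and EIF4A2 are paralogous helicases, named here after their values were seen. EIF4A1 was at 892 and 1045 CPM in DMSO, 665 and 696 with ICG-001, 757 and 758 with CWP232228, and 731 and 729 with YB-0158, and fell by 0.51, 0.35 and 0.41 (edgeR adjusted p = 0.0017, 0.012 and 0.0056). With the GC and length offset EIF4A1 fell by 0.28, 0.14 and 0.22, and with the effective length offset by 0.77 with ICG-001, all called. Its call with CWP232228 was lost without either CWP232228 library. EIF4A2 was at 360 and 356 CPM in DMSO, 431 and 478 with ICG-001, 416 and 428 with CWP232228, and 377 and 411 with YB-0158. It rose by 0.34 and 0.24 with the first 2 compounds and had a value of 0.14 with YB-0158 that was not called; with the offset the 3 values were 0.13, -0.03 and -0.01, and only that with ICG-001 was called. The effective length offset ended the calls of EIF4A2 with ICG-001 (0.21) and CWP232228 (0.04). Leaving out ICG-001 replicate 2 ended the first, and leaving out DMSO replicate 2 or any 1 library of CWP232228 or YB-0158 ended the second. The difference between the paralogs was not tested.

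EIF4G1, EIF4G2 and EIF4G3 are the eIF4G paralogs measured, and differences between them were not tested. EIF4G2, a relative of eIF4G that lacks the eIF4E-binding part, was at 1063 and 874 CPM in DMSO, 1429 and 1490 with ICG-001, 1344 and 1293 with CWP232228, and 1404 and 1455 with YB-0158. Every treated library was above both controls, which themselves differed. EIF4G2 rose by 0.59, 0.45 and 0.56 on the log2 scale (edgeR adjusted p = 0.0016, 0.0084 and 0.0024). The GC and length offset gave 0.62, 0.43 and 0.59, and the effective length offset gave 1.05, 0.87 and 1.12, all called. The call with CWP232228 was lost without CWP232228 replicate 1 (adjusted p = 0.055). EIF4G3 rose by 0.45, 0.37 and 0.44, but stood at 0.03, -0.04 and 0.03 with that offset and was not called. EIF4G1, the main scaffold, was at 921 and 859 CPM in DMSO and 876 to 980 CPM with treatment, and was not called.

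Of the proteins around the cap itself, EIF4E2, a cap-binding homolog linked to translational repression, fell by 0.39, 0.36 and 0.34, and by 0.18, 0.15 and 0.16 with the offset. EIF4EBP2, which sequesters eIF4E, was called higher with ICG-001 (0.23) and CWP232228 (0.25); with the offset it was called lower with all 3, at -0.52 each. The direction for EIF4EBP2 therefore depends on that setting. EIF4E, EIF4B, EIF4H and PABPC1 were not called with any compound. PABPC1 was at 2193 and 2234 CPM in DMSO and 2277 to 2582 CPM in the treated libraries, with log2 values of 0.14, 0.08 and 0.21 (edgeR adjusted p = 0.15, 0.39 and 0.053). With the GC and length offset PABPC1 was called higher (0.20) and EIF4H lower (-0.19) with YB-0158. EIF4B was then called lower with all 3 (-0.28, -0.24 and -0.15) and EIF4E lower with ICG-001 (-0.31). The effective length offset also called EIF4E lower with ICG-001 (-0.50, edgeR adjusted p = 0.047). DESeq2 and RLE scaling called EIF4B lower with ICG-001, and DESeq2 called PABPC1 higher with YB-0158.

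The factors of subunit joining and late steps moved apart. EIF5, the GTPase activator of eIF2, was at 165 and 142 CPM in DMSO, 222 and 259 with ICG-001, 226 and 231 with CWP232228, and 198 and 225 with YB-0158. No treated library overlapped the controls. EIF5 rose by 0.65, 0.58 and 0.46 on the log2 scale (edgeR adjusted p = 0.0016, 0.0044 and 0.0087) and by 0.44, 0.34 and 0.29 with the offset. Without YB-0158 replicate 2 the call with YB-0158 was lost (adjusted p = 0.073).

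EIF5A, the hypusine-bearing factor that relieves stalled ribosomes, fell. It was at 671 and 734 CPM in DMSO, 461 and 464 with ICG-001, 537 and 509 with CWP232228, and 461 and 476 with YB-0158, with no overlap. EIF5A fell by 0.60, 0.43 and 0.58 (edgeR adjusted p = 0.00035, 0.0032 and 0.00047); with the offset the values were -0.25, -0.06 and -0.27, and CWP232228 was no longer called. EIF5B, which joins the large subunit, was called with CWP232228 only (0.27), and the offset turned it to -0.44 and called it lower with ICG-001 (-0.47) too. EIF6, which keeps the large subunit apart, was called lower with CWP232228 only (-0.26), and the offset turned it to 0.24 and called it higher with ICG-001 (0.55) and YB-0158 (0.51) as well.

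Of the 6 elongation genes, EEF2, EEF1G and EEF1D fell with each compound and 0 rose by edgeR, with medians of -0.39, -0.41 and -0.25. At an unadjusted p under 0.05, 0 of the 6 were higher with any compound, and DESeq2 also called 0 higher. Counts over 6 genes were not tested against the shares of all genes. The values of EEF1A1, EEF1B2 and EEF2K lay between -0.25 and 0.21. EEF2, the translocase, was at 3581 and 3859 CPM in DMSO, 1873 and 1877 with ICG-001, 2220 and 2062 with CWP232228, and 2285 and 2205 with YB-0158. All treated libraries lay far below the controls. EEF2 fell to 0.50 of the DMSO level with ICG-001 (log2 -0.99, SE 0.08, adjusted p = 5.9e-05), to 0.58 with CWP232228 (log2 -0.80, adjusted p = 0.00064) and to 0.60 with YB-0158 (log2 -0.73, adjusted p = 0.00027). With the offset the log2 values were -0.61, -0.39 and -0.38, all called.

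EEF1G had the next largest fall in this group. It was at 3373 and 4446 CPM in DMSO, 2232 and 2344 with ICG-001, 2670 and 2609 with CWP232228, and 2678 and 2597 with YB-0158. The controls were the higher and also the more scattered. EEF1G fell by 0.77, 0.57 and 0.57 (edgeR adjusted p = 0.0013, 0.0077 and 0.0061) and with the offset by 0.44, 0.22 and 0.28. The call was lost without CWP232228 replicate 2 (adjusted p = 0.064) and without YB-0158 replicate 2 (adjusted p = 0.050). EEF1D, an eEF1B subunit that recharges eEF1A, fell by 0.57, 0.57 and 0.41, but with the offset the values were -0.03, -0.02 and 0.07 and none was called. Without YB-0158 replicate 2 the call of EEF1D with YB-0158 was lost.

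EEF1A1 was at 14031 and 15348 CPM in DMSO, 12328 and 13465.5 with ICG-001, 13128 and 13000 with CWP232228, and 13878 and 13702.5 with YB-0158. In CPM its treated libraries all lay below the controls, but by little, and the log2 values of -0.19, -0.17 and -0.09 were not called (edgeR adjusted p = 0.13, 0.17 and 0.46). In TPM the order differed: 10751 and 9487 in DMSO, 9677 and 10534 with ICG-001, 10151 and 10509 with CWP232228, and 11249 and 10928 with YB-0158, both of these above the controls. The effective length offset gave EEF1A1 values of -0.07, -0.06 and 0.06, none called, so its direction with YB-0158 depends on that setting. The GC and length offset gave -0.21 and -0.20 with calls for ICG-001 and CWP232228, and -0.11 without one for YB-0158. EEF1A1 has processed copies in the genome; the copy EEF1A1P5 held no more than 25.6 CPM in DMSO. EEF1B2 and EEF2K were not called, and the offset called EEF2K lower with ICG-001 (-0.35) and YB-0158 (-0.37).

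Translation genes outside the list of members gave calls in both directions. Of 21 other initiation factors and regulators, 7 were higher and 6 lower with ICG-001, 7 and 6 with CWP232228, and 5 and 6 with YB-0158. Of 10 tested elongation, termination and rescue factors, 4 were higher and 2 lower, 4 and 3, and 4 and 2. Of 14 enzymes that modify elongation factors, the counts were 3 and 4, 1 and 5, and 2 and 3. Of 9 mitochondrial translation factors they were 4 and 2, 3 and 1, and 3 and 2. Over all genes tested, 24.8% were called higher and 24% lower with ICG-001. The shares were 21.6% and 21.2% with CWP232228, and 21.7% and 22.1% with YB-0158. The lists are small, were not tested against these shares, and nothing is read from their counts.

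EIF4EBP1, GTPBP2 and EEF1A2 were the genes of these lists called with a log2 fold change of at least 1 in size. EIF4EBP1, the repressor that binds eIF4E when growth signalling is low, was at 19.2 and 21.8 CPM in DMSO, 57.0 and 55.0 with ICG-001, 36.8 and 31.3 with CWP232228, and 54.6 and 56.6 with YB-0158. CWP232228 lay between the controls and the other compounds without overlap. The log2 fold changes of EIF4EBP1 were 1.45 (SE 0.10, adjusted p = 3.4e-05), 0.73 (adjusted p = 0.0018) and 1.44 (adjusted p = 4.2e-05); with the offset they were 2.05, 1.38 and 1.98.

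GTPBP2, a GTPase of ribosome rescue, showed the same order, with 93.1 and 88.2 CPM in DMSO, 201 and 189 with ICG-001, 132 and 122 with CWP232228, and 217 and 205 with YB-0158. Its log2 fold changes were 1.11, 0.48 and 1.22 (edgeR adjusted p = 2.8e-05, 0.0025 and 2.4e-05). EEF1A2, the paralog of EEF1A1 found mainly in muscle and neurons, was at 68.9 and 98.2 CPM in DMSO, 41.5 and 38.0 with ICG-001, 50.8 and 51.6 with CWP232228, and 59.6 and 63.9 with YB-0158. It fell by 1.07, 0.71 and 0.44 (edgeR adjusted p = 0.00092, 0.0083 and 0.044), and the offset left only the call with ICG-001 (-0.53) and gave 0.06 with YB-0158. Its call with CWP232228 was lost without either CWP232228 library, and that with YB-0158 without any 1 library other than DMSO replicate 1.

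The compounds were also compared with each other, at doses that differ, so compound and dose cannot be told apart. Between CWP232228 and ICG-001, 2 of 44 members were called lower and 0 higher, where 3.17% of all genes were lower and 3.65% higher; 4 members had a higher value at an unadjusted p under 0.05, and DESeq2 called 3 lower and 0 higher. EIF1 was lower with CWP232228 by 0.47 (95% interval -0.66 to -0.28, edgeR adjusted p = 0.016) and EIF2S2 by 0.43 (-0.64 to -0.22, edgeR adjusted p = 0.029). Both calls were lost without any 1 of the 4 libraries of those groups, and EIF2S2 also without either YB-0158 library.

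Between YB-0158 and CWP232228, 2 members were called higher and 0 lower, against 3.56% and 4.21% of all genes; 2 members were lower at an unadjusted p under 0.05, and DESeq2 called 4 higher and 0 lower. EIF1 was higher with YB-0158 by 0.45 (95% interval 0.26 to 0.65, edgeR adjusted p = 0.016) and EIF6 by 0.34 (0.15 to 0.54, edgeR adjusted p = 0.046). The EIF1 call was lost without any 1 of the 4 libraries of those groups, and the EIF6 call without any 1 of the 6 treated libraries and with the replicate block (adjusted p = 0.087). Between YB-0158 and ICG-001 edgeR called 0 of 44 members, against 0.00608% of all genes, which is 1 gene; 3 members had an unadjusted p under 0.05, and DESeq2 called 0. The log2 differences of the members there ran from -0.21 for EIF4A2 (95% interval -0.38 to -0.03) to 0.26 for EEF2 (0.08 to 0.44), and a missed threshold does not show that the compounds act alike.

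EIF4EBP1 and GTPBP2 differed between CWP232228 and the other compounds by more than any member did in size. EIF4EBP1 was lower with CWP232228 than with ICG-001 by 0.72 (95% interval -0.95 to -0.49, edgeR adjusted p = 0.0066), and GTPBP2 by 0.62 (-0.80 to -0.45, edgeR adjusted p = 0.0040). Each call was lost without ICG-001 replicate 1 or CWP232228 replicate 2. Between YB-0158 and CWP232228 EIF4EBP1 was higher by 0.71 (edgeR adjusted p = 0.0060), a call lost without CWP232228 replicate 2 or either YB-0158 library, and GTPBP2 by 0.74 (edgeR adjusted p = 0.0021). Between YB-0158 and ICG-001 the same genes differed by -0.01 (-0.24 to 0.22) and 0.11 (-0.06 to 0.28).

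**Figure D5:**
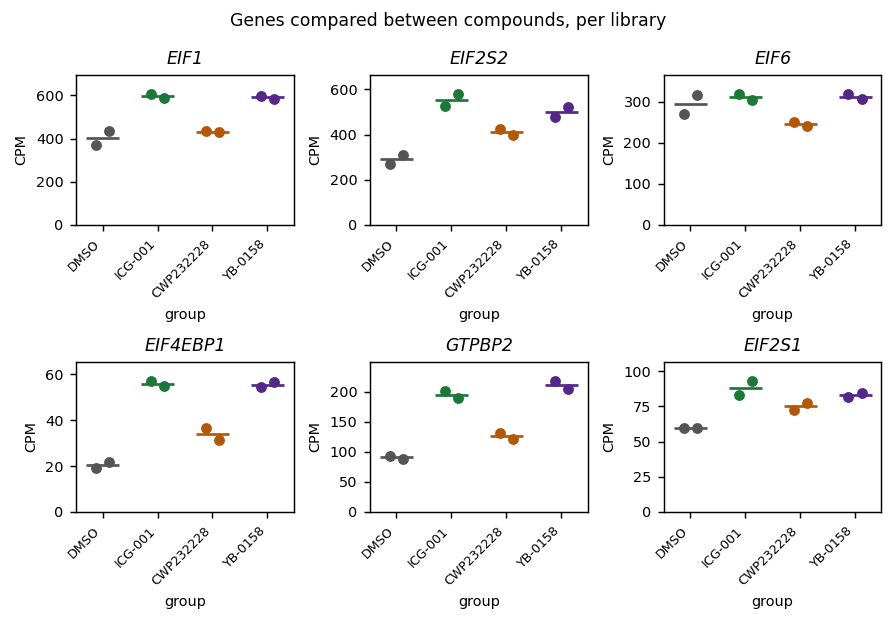
CPM (vertical axis, from 0) in each library for EIF1, EIF2S2, EIF6, EIF4EBP1, GTPBP2 and EIF2S1 in the 4 groups (horizontal axis); points are libraries and lines are group means. In the EIF1, EIF4EBP1 and GTPBP2 panels the CWP232228 points lie below those of ICG-001 and YB-0158.

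Transcript usage within genes was tested with edgeR's diffSpliceDGE and Simes' method over 11611 genes, 42 of them members. With ICG-001, 7 members were called, against 3.73% of genes; with CWP232228, 7, against 3.44%; with YB-0158, 2, against 3.15%. EIF4A2, EIF4B, EIF4E, EIF5A and PABPC1 were called with the first 2 compounds, EIF2A and EIF4G2 with ICG-001 and YB-0158, and EIF4A1 and EIF5 with CWP232228. These counts fell to 2, 2 and 0 when only transcripts with at least 5% of their gene were kept, and to 3, 0 and 1 with the replicate block. No share of all genes is given here for these settings or for the fits with a library left out. With ICG-001 the count was 2 without either ICG-001 library. With CWP232228 it was 2 without either CWP232228 library and 3 without any 1 ICG-001 or YB-0158 library. With YB-0158 it was 8 without DMSO replicate 1 and 4 without DMSO replicate 2.

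Changes of at least 10 percentage points in a transcript's share of its gene's TPM were seen in 4 of the called members, EIF4E, EIF2A, EIF4G2 and EIF5. None of these 4 was called with the filter at 5%, and with the replicate block the only call left among them was EIF4G2 with YB-0158. In EIF4E, the cap-binding protein, a processed transcript held 25.2% and 25.7% in DMSO, was listed at 0 in both ICG-001 and both CWP232228 libraries, and held 21.4% and 0% with YB-0158. The main EIF4E coding transcript held 68.5% and 62.6% in DMSO, 90.2% and 90.8% with ICG-001, and 91.7% and 91.6% with CWP232228 (edgeR adjusted p = 0.033 and 0.042 for the gene). In EIF2A, 1 coding transcript held 18.3% and 6.69% in DMSO and was listed at 0 in all treated libraries but CWP232228 replicate 2, at 1.68% (edgeR adjusted p = 0.0096 with ICG-001 and 0.010 with YB-0158). These shares jumped between 0 and a large value within a group, and the uncertainty of assigning reads to transcripts is not in the test.

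In EIF4G2, the decay-annotated transcript named above rose in share from 67.5% and 58.6% in DMSO to 75.1% and 72.3% with ICG-001 and to 74.0% and 73.8% with YB-0158 (edgeR adjusted p = 0.029 and 4.7e-05 for the gene). Its share with CWP232228 was 75.7% and 73.8%, where the gene was not called. In EIF5, a retained-intron transcript held 16.4% and 0% in DMSO and 27.5% and 11.7% with CWP232228, so the groups overlapped although the gene was called (edgeR adjusted p = 0.034). The same transcript held 21.0% and 22.9% with ICG-001 and 21.4% and 24.3% with YB-0158, where the gene was not called.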

How the data were processed

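RNA from 8 HT29 libraries was sequenced from poly(A)-selected, unstranded kits, so a gene and an antisense partner cannot be told apart. The authors deposited, per the file headers, estimated counts, effective lengths and TPM per transcript and library. The build GRCh38 and, among tools, Salmon 1.3.0, DESeq2 and fastp are listed per the submitters' processing notes, which give no role or order. The authors' deposited tables of each compound against DMSO hold FPKM per library, a mean normalized signal per gene, log2 fold changes and p-values, per the file headers. Used here were the symbols, the FPKM as an alternative level, the values of EIF1AX, and adjusted p-values of some other members with ICG-001.

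Estimated counts were summed per gene through GENCODE 29 (204677 of 228754 transcripts matched, 89.5%) and rounded. They were tested with edgeR 4.0.16 in R 4.3.3 (TMM scaling, filterByExpr, robust quasi-likelihood fit over all 8 libraries with 4 residual degrees of freedom) and Benjamini-Hochberg adjustment over 16449 genes. Transcript usage used diffSpliceDGE. The code was tested on simulated data. Alternatives were DESeq2 1.42.0, RLE scaling, no filter, an offset for GC content and length (splines with 5 degrees of freedom), an effective length offset, the replicate number as a block, each library left out, and both 49 h libraries left out. CPM are reads per library total. The members and lists were chosen with earlier results of these data known. Values in every library are given for members called with an absolute log2 fold change of at least 0.58, for the 4 most abundant members, for 1 uncalled example per role, for EIF2S1 and EIF4EBP1, and for other listed genes called at 1 or more; for transcript usage, for called members with a share change of at least 10 percentage points.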

Additional observations from a re-analysis of the deposited data

Results flagged for a closer look

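The results below are differences between 2 compounds that passed edgeR's test of the difference itself; doses and, in part, hours differ between the groups. CWP232228 against ICG-001 gave log2 differences of -0.4675 for EIF1, -0.4325 for EIF2S2, -0.7173 for EIF4EBP1 and -0.6228 for GTPBP2. YB-0158 against CWP232228 gave 0.453 for EIF1, 0.3448 for EIF6, 0.7067 for EIF4EBP1 and 0.7357 for GTPBP2. In all of these the CWP232228 libraries were the lower, in 2 of 2 libraries against 2 of 2. With an offset for effective transcript length the calls of EIF1 (adjusted p = 0.0635 and 0.0682), EIF2S2 (0.0905) and EIF6 (0.149) were lost, and those of EIF4EBP1 and GTPBP2 were kept. Without both 49 h libraries all 8 calls were lost. With a single library left out, each of these calls but that of GTPBP2 between YB-0158 and CWP232228 was lost in at least 1 of the fits. The GTPBP2 difference between YB-0158 and CWP232228 was kept without any 1 library, with a highest adjusted p of 0.0470.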

How the results depend on the processing

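No called value changed direction under DESeq2, RLE scaling, no low-count filter, the replicate block alone or leaving out a library; GC content and effective length offsets did change directions. With the GC and length offset, and with it together with the replicate block, the log2 values against DMSO reversed as follows, in that order. With ICG-001 they were -0.19 and -0.19 for EIF2S3, -0.018 and -0.018 for EIF3A, -0.52 and -0.52 for EIF4EBP2, -0.47 and -0.47 for EIF5B, and -0.35 and -0.35 for EEF2K. With CWP232228 they were -0.18 and -0.18 for EIF2S3, -0.14 and -0.14 for EIF3A, -0.035 and -0.034 for EIF4A2, -0.52 and -0.51 for EIF4EBP2, -0.042 and -0.042 for EIF4G3, -0.44 and -0.43 for EIF5B, and 0.24 and 0.24 for EIF6. With YB-0158 they were -0.11 and -0.11 for EIF2S3, -0.52 and -0.52 for EIF4EBP2, 0.070 and 0.070 for EEF1D, -0.37 and -0.37 for EEF2K, and 0.059 and 0.063 for EEF1A2. The effective length offset gave 0.037 for EIF3L with CWP232228. The cause was not tested.

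Counts of members called moved by more than 1.5 times as follows. ICG-001 higher (10) became 6 with the GC and length offset, 5 with that offset and the block, 5 without the 49 h libraries and 6 to 11 with a library left out. CWP232228 higher (10) became 4, 4 and 0 in those settings, 6 with the effective length offset and 3 to 12 with a library left out. CWP232228 lower (16) became 10 with the GC and length offset and the block, 10 with the effective length offset, 0 without the 49 h libraries and 7 to 20 with a library left out. YB-0158 higher (8) ranged from 5 to 11 and lower (12) from 7 to 15 with a library left out. CWP232228 against ICG-001 higher (0) became 6, 5 with the block, and 0 to 4 with a library left out; lower (2) became 6, 4 with the block, 0 with the effective length offset, 0 without the 49 h libraries and 0 to 4 with a library left out. YB-0158 against CWP232228 higher (2) became 4 with no filter, 4 with the GC and length offset, 4 with that and the block, 1 with the block alone, 0 with the effective length offset, 0 without the 49 h libraries, 4 with DESeq2 and 0 to 9 with a library left out; lower (0) became 2 with the GC and length offset and 2 with that and the block. Members with called transcript usage (7, 7 and 2) became 2, 2 and 0 among transcripts with at least 5% of the gene, 3, 0 and 1 with the block, and 2 to 9, 2 to 6 and 2 to 8 with a library left out. Leaving out a library leaves a group with 1, assumed to vary like the others. The share of all genes called is not given here for any alternative setting. These counts therefore show how the calls depend on the setting and nothing about the members in particular.

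The replicate numbers do not pair the libraries across all 4 groups, and the labels name no shared batch: deviations of same-numbered libraries correlated at -0.37 to -0.28 between DMSO and the compounds and at 0.27 to 0.52 among compounds (8568 genes), where same numbers do go together. Between compounds the block ended 1 call named here, EIF6 for YB-0158 against CWP232228 (adjusted p = 0.087). With the replicate block the counts higher and lower were 9 and 12 with ICG-001, 9 and 14 with CWP232228, and 7 and 11 with YB-0158.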
